A study of Mus musculus with 6 samples.

Results

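A set of 10 genes of blood monocytes and of the signals that draw and feed them was followed in tumors that grew in lungs with and without interstitial pneumonia (IP). They were Ly6c2, Ccr2, Plac8, F13a1, Ms4a4c, Cx3cr1, Nr4a1, Ace, Csf1 and Csf2ra, chosen by name as genes of monocytes or of the factors that act on them, and each had 1 row in the tables, so that they made up 10 of 31130 genes. RNA was sequenced from 6 lung tumors, 3 from mice with lung cancer alone (LC) and 3 from mice that also had IP (IP + LC). All mice were female wild-type C57BL/6, 6 to 8 weeks old, and all received Lewis lung carcinoma (LLC) cells, a lung cancer line from this strain that here carried EGFP, into the left lung. The IP + LC mice had been given bleomycin, which injures the alveolar wall and leads to fibrosis, at 2.0 mg/kg by aspiration through the throat 14 days before the cells, the LC mice had not, and tumors of both models were taken on day 21. The labels name the cells as lung cancer cells, but each library is whole tumor tissue, in which tumor cells, host lung and blood-borne cells are mixed.

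Monocytes are made in the bone marrow and circulate as 2 main kinds. Classical monocytes carry much Ly6C and the chemokine receptor CCR2, leave the marrow along CCR2 ligands such as CCL2, enter inflamed tissue and tumors, and become macrophages there. Patrolling monocytes carry little Ly6C and much CX3CR1, crawl along the inside of capillaries, and depend on the nuclear receptor NR4A1. The growth factors CSF1 and CSF2 keep monocytes and macrophages alive and steer their differentiation.

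The libraries held 592733 to 1631066 UMIs. A UMI is a random tag on each captured transcript, so that 1 UMI stands for 1 molecule, and values are given below as CPM, counts scaled to the library total, after TMM scaling. LC replicate 1 stood apart by its depth of 592733 UMIs, against at least 1336919 in every other library. Before TMM scaling, a count of 3 UMIs was worth 5.06 CPM in LC replicate 1 and at most 2.24 CPM elsewhere. Mitochondrial genes took 3.84% of its UMIs, against 9.38% and 12.0% in the other LC tumors and 4.40% to 8.32% in IP + LC, and its counts differed more from those of LC replicates 2 and 3 (chi-square per degree of freedom 13.4 and 17.7) than these differed from each other (6.32). Values without LC replicate 1 are therefore also given for many genes, but not for all that moved. Without it the log2 fold change of IP + LC over LC went from -0.40 to -0.14 for F13a1 and from -1.55 to -1.97 for Klf4. It went from 2.42 to 2.85 for Fcgr1 and from 1.75 to 2.18 for Vcan. None of these 4 genes changed its call. Markers of the surrounding lung were plentiful: Sftpc, a surfactant gene of type 2 alveolar cells, averaged 27466 CPM in LC and 6347 CPM in IP + LC. The labels number the tumors but do not say which mouse each came from, so that p-values measure the spread between these samples.

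Of the 10 genes, 7 were higher in IP + LC, 2 were lower and 1 did not pass the test (quasi-likelihood test of edgeR, p-values adjusted by Benjamini-Hochberg over 11240 genes, limit 0.1). Those that rose were the classical monocyte genes Ly6c2, Ccr2, Plac8 and Ms4a4c, the receptor genes Cx3cr1 and Csf2ra, and the growth factor gene Csf1. The genes that fell were Nr4a1 and Ace. Across all genes tested 36.4% were called, with 16.8% higher and 19.6% lower, so that a call as such was common in these tumors. Without LC replicate 1 the counts among the 10 were again 7 higher and 2 lower, in a fit that called 57.0% of all genes tested (6691 of 11748). The median log2 fold change of the 10 genes was 0.75, beside 0.02 over all genes tested. Their changes ran from -1.80 for Ace to 2.14 for Csf1, and the values did not overlap between the groups for 6 genes that were higher and 2 that were lower, where 21.6% and 21.5% of all genes tested did so.

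**Figure D1:**
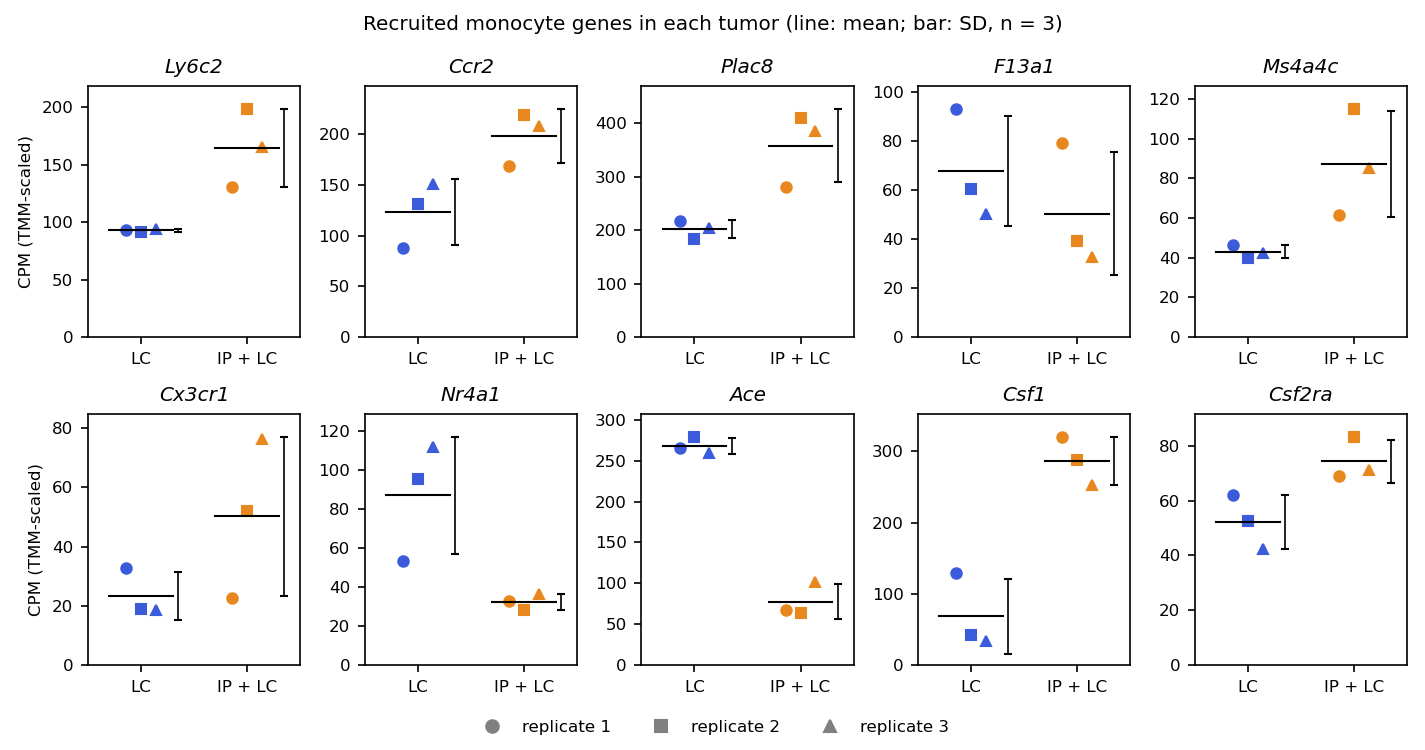
Each panel plots the level of 1 gene in CPM after TMM scaling for the 3 LC (blue) and 3 IP + LC (orange) tumors. Circle, square and triangle mark replicates 1, 2 and 3, the line is the mean and the bar the SD; Ace and Nr4a1 sit lower in every IP + LC tumor, Csf1 higher in every one, and F13a1 and Cx3cr1 overlap.

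Ly6c2 encodes the Ly6C surface protein by which mouse classical monocytes are sorted. It lies on chromosome 15 of GRCm38 (75108158 to 75111970, minus strand) beside a near-identical gene, Ly6c1, which endothelial cells also express. The first 120 coding bases of both are shown because this likeness bears on how far the counts of either gene can be trusted, and capitals mark the bases that differ (GENCODE M21, 5′ to 3′).
Ly6c2: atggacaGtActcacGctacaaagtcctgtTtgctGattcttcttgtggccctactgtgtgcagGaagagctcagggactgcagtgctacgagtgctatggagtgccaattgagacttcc
Ly6c1: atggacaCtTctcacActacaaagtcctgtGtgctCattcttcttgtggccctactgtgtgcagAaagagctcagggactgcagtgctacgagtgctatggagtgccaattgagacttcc
Of 393 coding bases 9 differ, an identity of 97.71%, and 6 of them lie in the stretch shown. Libraries of this kind read 81 bases near the 3′ end. Over the last 400 bases of the Ly6c2 transcript, 44 of 320 windows of 81 bases matched Ly6c1 exactly and 292 differed from it at no more than 2 bases. Counts of Ly6c2 and Ly6c1 are therefore uncertain to the extent that reads were assigned to the wrong one of the pair.

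Ly6c2 was detected at 93.0, 91.7 and 94.1 CPM in the LC tumors and at 131, 198 and 166 CPM in the IP + LC tumors. The LC tumors lay close together and every IP + LC tumor was above them. The increase was 1.78-fold (log2 fold change 0.83, SE 0.21, adjusted p = 0.0217), and 0.84 on the log2 scale without LC replicate 1 (adjusted p = 0.00128). The call was lost without IP + LC replicate 2, the highest tumor (adjusted p = 0.108), and when all libraries were thinned to 592733 UMIs (adjusted p = 0.131).

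Ly6c1 ran from 564 to 706 CPM in LC and from 435 to 552 CPM in IP + LC and did not pass the test (log2 fold change -0.35, SE 0.20, adjusted p = 0.239). The share of Ly6c2 among the UMIs of both genes needs no scaling between libraries. It was 11.6%, 13.7% and 14.3% in LC and 23.1%, 26.5% and 26.3% in IP + LC. Every IP + LC tumor was above every LC tumor, and the 95% Wilson intervals, which cover counting error only, reached up to 16.9% in LC and down to 20.3% in IP + LC. The means were 13.2% ± 1.42 and 25.3% ± 1.91 (SD, n = 3 each; two-sided exact permutation p = 0.1, the smallest that 3 against 3 allows). The sum of both genes was 709 ± 78.3 CPM in LC and 648 ± 93.7 CPM in IP + LC (SD, n = 3 each; two-sided exact permutation p = 0.4).

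**Figure D2:**
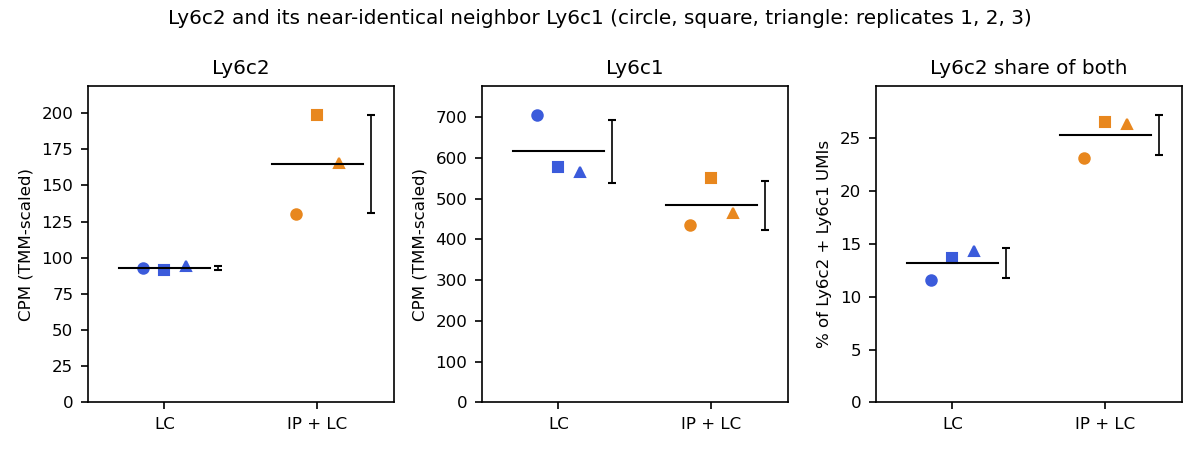
The panels plot Ly6c2 (CPM), Ly6c1 (CPM) and the share of Ly6c2 among the UMIs of both genes (%) in each tumor, with the mean as a line and the SD as a bar. The share lies between 11.6% and 14.3% in LC and between 23.1% and 26.5% in IP + LC.

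The 250 bases before the RefSeq starts of the pair (build GRCm38.p6) are shown because the genes are near-identical in their coding part and differ here. Capitals mark GAGGAAGT, a sequence bound by ETS factors such as PU.1, searched on both strands.
Ly6c2, chr15:75111972-75112221, minus strand: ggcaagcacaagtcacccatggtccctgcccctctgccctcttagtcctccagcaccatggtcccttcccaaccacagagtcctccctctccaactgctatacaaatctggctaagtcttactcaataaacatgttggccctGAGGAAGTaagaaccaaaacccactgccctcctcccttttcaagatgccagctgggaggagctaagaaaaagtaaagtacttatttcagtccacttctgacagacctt
Ly6c1, chr15:75048838-75049087, minus strand: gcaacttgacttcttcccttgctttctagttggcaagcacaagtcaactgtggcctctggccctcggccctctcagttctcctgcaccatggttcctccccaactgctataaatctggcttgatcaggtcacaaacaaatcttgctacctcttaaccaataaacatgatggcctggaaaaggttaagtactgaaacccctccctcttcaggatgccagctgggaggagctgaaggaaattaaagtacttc
Over 216 aligned bases 75.93% were identical. GAGGAAGT occurred once in this Ly6c2 window and not in this Ly6c1 window. In the second RefSeq window of each gene, which overlaps the first and lies further into the gene, it occurred 2 times for Ly6c2 and 1 time for Ly6c1. Of 32851 promoter windows of the genome 2.44% held it. A match is a stretch of letters and was not tied to any value measured here.

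Ccr2 encodes the chemokine receptor that classical monocytes need to leave the marrow. Its level was 87.8, 131 and 151 CPM in LC and 168, 219 and 208 CPM in IP + LC. LC replicate 1 was the lowest tumor, and the groups did not overlap. The increase was 1.60-fold (log2 fold change 0.67, SE 0.24, adjusted p = 0.0682). It was 0.51 without LC replicate 1 (adjusted p = 0.0133), and it missed the limit without LC replicate 2 (adjusted p = 0.157) and when any single IP + LC tumor was left out (adjusted p = 0.102, 0.206 and 0.162 for replicates 1, 2 and 3).

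Plac8 encodes a small cysteine-rich protein that is abundant in classical monocytes. It stood at 217, 183 and 204 CPM in LC and at 280, 409 and 385 CPM in IP + LC. IP + LC replicate 1 was the lowest of its group and still above all LC tumors. The increase was 1.78-fold (log2 fold change 0.83, SE 0.22, adjusted p = 0.0219), and the adjusted p was 0.104 without IP + LC replicate 2.

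Ms4a4c belongs to a family of membrane proteins with 4 spans whose genes lie together on chromosome 19, and it is a marker of monocytes. Its level was 46.5, 40.0 and 42.4 CPM in LC and 61.6, 115 and 85.0 CPM in IP + LC. The order of the IP + LC tumors was that of Ly6c2, with replicate 1 lowest and replicate 2 highest, and no value overlapped. The increase was 2.05-fold (log2 fold change 1.04, SE 0.26, adjusted p = 0.0201) and passed the limit in all 16 fits that were run, those without each tumor included. Of 1643 stretches of 81 bases in its transcript 53 (3.23%) also occur in the neighboring Ms4a4b. Over its last 400 bases, 6 of 320 such stretches matched Ms4a4b exactly and 64 differed from it at no more than 2 bases.

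F13a1 encodes the A chain of coagulation factor XIII, which cross-links fibrin and is made by monocytes and by resident macrophages. Of the classical monocyte genes among the 10, it was the one that did not rise. Its level was 93.0, 60.3 and 50.0 CPM in LC and 79.0, 39.1 and 32.7 CPM in IP + LC. Replicate 1 was the highest of both groups and the groups overlapped. The difference did not pass the test (log2 fold change -0.40, 95% interval -1.23 to 0.43, adjusted p = 0.451), nor in any of the 16 fits.

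Cx3cr1 encodes the fractalkine receptor, highest on patrolling monocytes and also present on many tissue macrophages. It was at 32.7, 18.8 and 18.6 CPM in LC and at 22.5, 51.9 and 76.2 CPM in IP + LC. IP + LC replicate 1 lay within the range of the LC tumors and the other IP + LC tumors were above all of them. The fitted increase was 2.26-fold with a wide error (log2 fold change 1.18, SE 0.44, adjusted p = 0.0772). It was 1.43 on the log2 scale without LC replicate 1 (adjusted p = 0.00777). Leaving out LC replicate 2 (adjusted p = 0.238) or LC replicate 3 (0.205) ended the call, as did leaving out IP + LC replicate 2 (0.185) or IP + LC replicate 3 (0.247).

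Nr4a1 encodes an orphan nuclear receptor that patrolling monocytes need for their survival, and it is also an immediate early gene that many cells switch on within minutes of a stimulus. It stood at 53.4, 95.6 and 112 CPM in LC and at 32.6, 28.0 and 36.3 CPM in IP + LC. LC replicate 1 was the lowest LC tumor and still above all IP + LC tumors, which lay close together. Nr4a1 fell by 1.46 on the log2 scale (SE 0.28, adjusted p = 0.0068), and the value was -1.68 without LC replicate 1 (adjusted p = 2.59e-06). The call held in all 16 fits.

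The 250 bases before the RefSeq start of Nr4a1 (GRCm38.p6) are shown because a motif of stimulus-responsive promoters occurs there repeatedly. Capitals mark TGCGTCA, a variant of the cAMP response element, searched on both strands.
Nr4a1, chr15:101266596-101266845, plus strand: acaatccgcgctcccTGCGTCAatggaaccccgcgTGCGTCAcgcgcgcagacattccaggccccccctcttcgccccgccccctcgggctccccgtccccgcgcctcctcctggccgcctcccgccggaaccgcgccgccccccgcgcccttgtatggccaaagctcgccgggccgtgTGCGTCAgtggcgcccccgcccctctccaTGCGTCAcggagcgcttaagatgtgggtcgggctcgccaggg
The window held 4 copies, where 1.75% of the 32851 promoter windows held at least 1, and none of the windows of the other 9 genes did. The full palindrome TGACGTCA (in 1.55% of all windows) was absent from this window and occurred once in that of Csf2ra.

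Ace encodes angiotensin-converting enzyme, which turns angiotensin I into angiotensin II, is a marker of patrolling monocytes, and is abundant on lung capillary endothelium. Its level was 265, 280 and 260 CPM in LC and 67.4, 63.0 and 102 CPM in IP + LC. The LC tumors were nearly alike and the groups were far apart. Ace fell by 1.80 on the log2 scale (SE 0.24, adjusted p = 0.00143), a level 3.47-fold higher in LC, and it was past the limit in all 16 fits. The value without LC replicate 1 was again -1.80 (adjusted p = 1.52e-06). Of the exonic bases of Ace 5.58% are shared with other annotated genes, so that a small part of its reads could have been lost or split.

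Csf1 encodes the main growth factor of monocytes and macrophages, made by stromal, endothelial and tumor cells rather than by monocytes alone. It was at 129, 41.5 and 33.9 CPM in LC and at 320, 287 and 253 CPM in IP + LC. LC replicate 1 was well above the other LC tumors, and all IP + LC tumors were above it. The increase was 4.42-fold (log2 fold change 2.14, SE 0.45, adjusted p = 0.00934). Without LC replicate 1 it was 2.93 on the log2 scale (adjusted p = 4.4e-08), and it passed the limit in all 16 fits.

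Csf2ra encodes the ligand-binding chain of the receptor for CSF2 (GM-CSF). It was at 62.0, 52.5 and 42.4 CPM in LC and at 68.9, 83.5 and 71.2 CPM in IP + LC. The groups did not overlap, but LC replicate 1 came close to IP + LC replicate 1. The increase was 1.45-fold (log2 fold change 0.53, SE 0.22) and lay just inside the limit (adjusted p = 0.0992). It was past the limit in 5 of the 16 fits, among them the one without LC replicate 1 (adjusted p = 0.00764), and DESeq2 gave an adjusted p of 0.202.

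**Figure D3:**
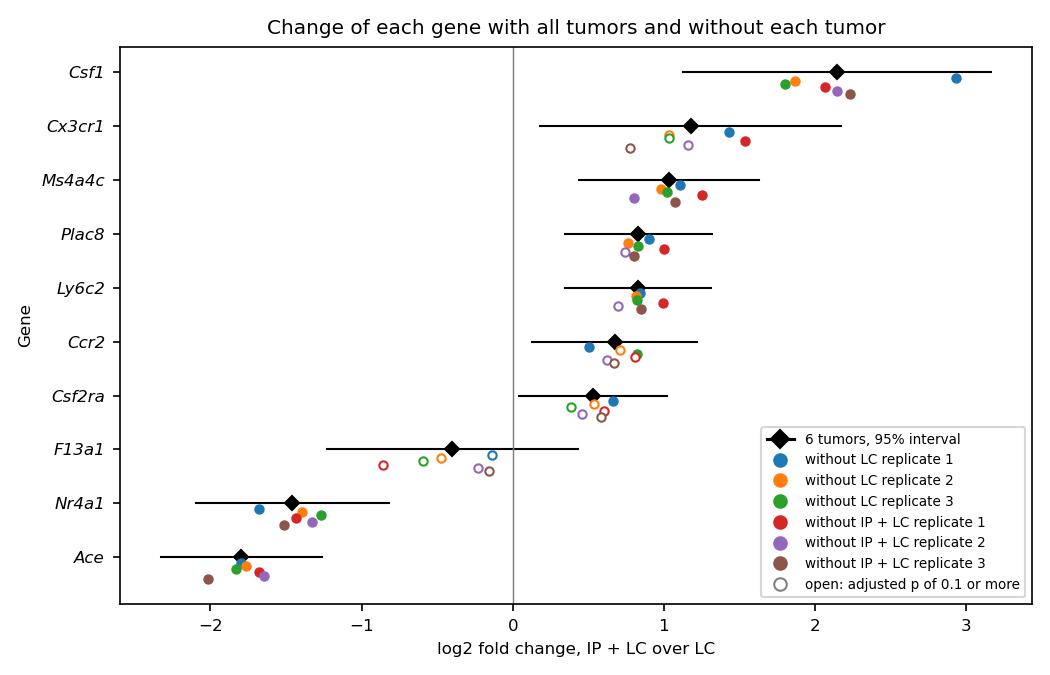
The log2 fold change of IP + LC over LC is plotted for each gene, as a diamond with its 95% interval for all 6 tumors and as circles for the fits without 1 tumor, open where the adjusted p was 0.1 or more. No gene changes its sign; Ms4a4c, Csf1, Nr4a1 and Ace stay filled throughout, and Csf2ra is filled only without LC replicate 1.

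Across the 6 tumors the genes that rose went largely together, the classical monocyte genes other than F13a1 among them. The Pearson correlation of log2(CPM + 4) was 0.99 between Ly6c2 and Ms4a4c, 0.98 between Ly6c2 and Plac8, and 0.85 between Ly6c2 and Ccr2. It was 0.79 between Ccr2 and Plac8 and 0.78 between Ccr2 and Ms4a4c. Between the classical genes that rose and Cx3cr1, Csf1 or Csf2ra it ran from 0.47 (Ccr2 with Csf1) to 0.87 (Ms4a4c with Csf2ra). Between Ly6c2 and F13a1 it was -0.66. These are descriptions over 6 libraries that share the difference between the groups, the depth and the scaling. Among all genes tested those most like Ly6c2 were AW112010 (0.995), Ms4a4c (0.991) and Sema4d (0.991), and those most like Plac8 were Mpeg1 (0.996), Ido1 (0.995) and Sema4d (0.993). Ms4a4c was most like Ifi209 (0.997), followed by Ly6c2 (0.991) and Tgm2 (0.990), and Cx3cr1 was most like Mgmt (0.991). Ccr2 was most like Lpcat4 (0.996), Nr4a1 like C130074G19Rik (0.998), Ace like Bik (0.999), Csf1 like Col5a1 (1.00, a collagen chain) and Csf2ra like Dpy19l1 (0.994). F13a1 was most like Tfrc, the transferrin receptor gene, at 0.973.

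The genes were next set against markers of the cells a tumor can hold. In bulk samples fewer cells of a type and less RNA per cell cannot be told apart. Of 10 leukocyte markers 1, Laptm5, was called higher and none lower, where 16.8% and 19.6% of all genes tested were. Their summed level was 1826 to 2630 CPM in LC and 2251 to 2993 CPM in IP + LC. Not all of them are shared by every leukocyte, as Tyrobp, Fcer1g and Spi1 are mainly myeloid genes. Per 1000 UMIs of these 10 markers, Ly6c2 had 35.4, 50.2 and 47.2 UMIs in LC and 58.0, 66.3 and 55.8 in IP + LC. The ratios of Ly6c2, Plac8, Ms4a4c and Csf1 were higher in every IP + LC tumor, where 9.39% of all genes tested were, and those of Nr4a1 and Ace lower, where 28.2% were. The ratios of Ccr2, F13a1, Cx3cr1 and Csf2ra overlapped. Ccr2 had 33.4, 71.6 and 75.6 UMIs per 1000 leukocyte marker UMIs in LC and 74.7, 73.1 and 69.9 in IP + LC, so that only LC replicate 1 was apart.

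Endothelial markers moved with Ace and Nr4a1. All 23 were lower in IP + LC, with a median log2 fold change of -1.82 and a summed level of 3838 to 6093 CPM in LC and 1024 to 1330 CPM in IP + LC. Calcrl, Tmem100 and Ramp2 were the most abundant, and none was at 0 in all libraries. Per 1000 UMIs of these markers, Ace had 69.1, 45.9 and 47.5 UMIs in LC and 52.0, 61.5 and 76.4 in IP + LC, and the groups overlapped. No gene of the 10 was lower in every IP + LC tumor on this scale, where 0.872% of all genes tested were. Nr4a1 had 13.9, 15.7 and 20.4 in LC and 25.1, 27.4 and 27.3 in IP + LC, higher in IP + LC, as 89.4% of all genes tested were on this scale. The part of endothelial RNA in the fall of Ace and Nr4a1 was not tested further.

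**Figure D4:**
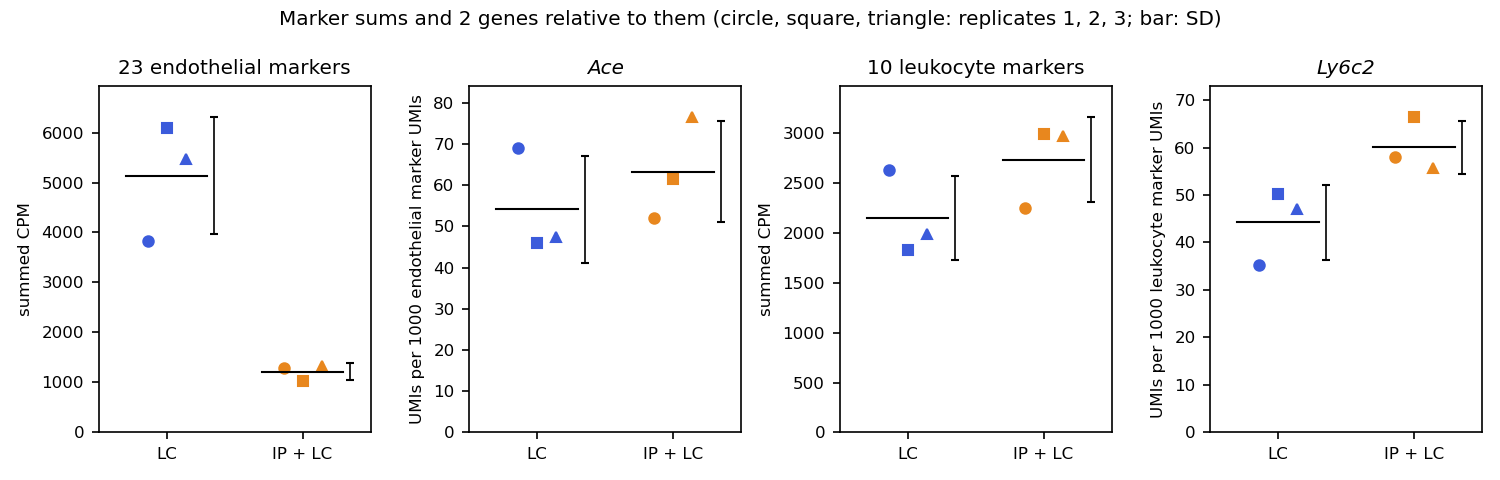
From left to right, the panels plot the summed level of 23 endothelial markers (CPM), Ace per 1000 UMIs of those markers, the summed level of 10 leukocyte markers (CPM) and Ly6c2 per 1000 UMIs of those markers, in each tumor with the mean and SD. The endothelial sum is lower in every IP + LC tumor while Ace relative to it overlaps, and Ly6c2 relative to leukocyte markers stays higher in IP + LC.

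Other cell types differed as well. Of 14 macrophage markers 7 were called higher and none lower (median log2 fold change 1.03), among them Spp1 (756 CPM in LC and 2053 CPM in IP + LC) and the complement gene C1qa (278 and 703 CPM), while Apoe did not pass the test. LC replicate 1 was apart here too: the summed level of these markers was 6385 CPM in it, above every IP + LC tumor (5159 to 6247 CPM), and 2308 and 1873 CPM in LC replicates 2 and 3. Spp1 was at 1576, 417 and 275 CPM and C1qa at 568, 157 and 110 CPM in the LC tumors. All 9 markers of alveolar macrophages, the resident macrophages of the air space, were lower (median -2.46, summed level 1343 to 1636 CPM in LC and 200 to 410 CPM in IP + LC, most of it Chil3). Lower calls and no higher ones were found for 5 of 10 tested neutrophil markers, with S100a9 and S100a8 the most abundant, 8 of 11 B cell markers, 2 of 5 NK cell markers and 2 of 4 dendritic cell markers. None of 8 tested T cell markers was called. Ly6g, a defining neutrophil gene, had at most 2 UMIs in any library. All 5 smooth muscle markers and 5 of 6 type 2 alveolar cell markers were lower, and of 10 fibroblast markers 2 were higher and 6 lower. Their part in the values of the 10 genes was not tested.

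Genes from 7 lists around the 10 genes were counted in the same fit. Of 95 tested genes 21 were higher and 23 lower, where 16.8% and 19.6% of all genes tested were. These shares over all genes stand beside the counts of each list below. Without LC replicate 1 the counts of the lists were 39 and 28. Those over all genes then went from 1885 to 3324 higher and from 2203 to 3367 lower.

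Classical monocyte genes did not move as 1 group. Of 26 tested, 12 were higher and 7 lower, with a median log2 fold change of 0.69. The higher ones included Fcgr1, the high-affinity IgG receptor (2.42, from a mean of 23.4 to 117 CPM, adjusted p = 0.00162), Vcan, the matrix proteoglycan versican (1.75), Samhd1, a dNTP hydrolase of myeloid cells (1.54), Irf8, a transcription factor of the monocyte lineage (1.30), and Itgam, the CD11b integrin chain (1.24). The lower ones included Chil3, a chitinase-like lectin (-2.46), Mgst1, a glutathione transferase (-1.90), Klf4, a transcription factor of monocytes and also of endothelium (-1.55), Hp, haptoglobin (-1.35), Ifitm6 (-1.27) and Lyz2, lysozyme (-1.11). Ifitm6 lost its call after thinning (adjusted p = 0.224). Klf4 was called in 12 of 16 fits, and its call was lost without any 1 of LC replicate 2, LC replicate 3, IP + LC replicate 1 or IP + LC replicate 2. Chil3 is also a defining gene of alveolar macrophages and is itself 1 of the 9 markers counted above, of which the other 8 were lower too. Lyz2 is also made by type 2 alveolar cells. The summed level of the list was 18077 to 19357 CPM in LC and 10536 to 12498 CPM in IP + LC, a sum in which Lyz2 alone averaged 13128 and 6068 CPM.

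Of 18 tested patrolling monocyte genes, 2 were higher, 6 were lower and 10 were not called (median log2 fold change -0.07). Fcgr4, an IgG receptor of patrolling monocytes and macrophages, rose from 33.3 to 182 CPM (2.45, adjusted p = 0.000859), and Cebpb, a transcription factor they need, rose by 1.06. Ear2, an eosinophil-associated ribonuclease (-2.89), the fatty acid binding protein gene Fabp4 (-2.48), the fatty acid receptor gene Cd36 (-2.39), Pglyrp1 (-1.81), Eno3 (-1.34) and Gngt2 (-1.24) were lower. Fabp4 and Cd36 are also expressed by capillary endothelium and Ear2 by alveolar macrophages.

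The chemokine ligands of the receptors were examined beside Ccr2 and Cx3cr1. Ccl2, the main ligand of CCR2, was at 284, 64.2 and 30.5 CPM in LC and at 685, 675 and 583 CPM in IP + LC. All IP + LC tumors were above LC replicate 1, itself far above the other LC tumors. Ccl2 rose by 2.41 on the log2 scale (SE 0.66, adjusted p = 0.0266). The value was 3.77 without LC replicate 1 (adjusted p = 4.03e-08), and 2.08, no longer called, without LC replicate 2 (adjusted p = 0.11). The other CCR2 ligands did not pass in the fit used throughout, with log2 fold changes of 1.49 for Ccl7 (adjusted p = 0.115), 1.70 for Ccl8 (0.116) and 1.53 for Ccl12 (0.148). In each of them LC replicate 1 was the highest LC tumor, and without it all of them passed, at 2.62 for Ccl7 (adjusted p = 7.34e-06), 3.29 for Ccl8 (2.59e-06) and 3.16 for Ccl12 (2.86e-07). They also passed with all 6 tumors under some alternatives, the replicate block among them (adjusted p = 0.0556, 0.0314 and 0.0681), and in all Ccl7 was called in 7, Ccl8 in 7 and Ccl12 in 4 of 16 fits. For Cx3cl1, the ligand of CX3CR1, the log2 fold change was -0.23, not past the limit (adjusted p = 0.642).

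In the colony-stimulating factor pathway Csf2rb and Csf2rb2 rose. Csf2rb, the signaling chain that the CSF2 receptor shares with the IL-3 and IL-5 receptors, went from a mean of 36.0 to 84.9 CPM (log2 fold change 1.21, adjusted p = 0.00827), and its paralog Csf2rb2, an IL-3 receptor chain, from 14.5 to 31.5 CPM (1.22, adjusted p = 0.0218, but 0.192 after thinning, 0.102 without LC replicate 2 and 0.107 when IP + LC replicate 2 was left out). These were 2 of 12 tested genes, a share near the 16.8% of all genes tested that were higher. None of the 12 was lower, where 19.6% of all genes tested were. Csf1r, the receptor of CSF1, was at 201, 82.3 and 69.5 CPM in LC and at 152, 203 and 165 CPM in IP + LC. LC replicate 1 lay within the IP + LC range, and the difference did not pass (log2 fold change 0.59, adjusted p = 0.274), whereas it was 1.20 without LC replicate 1 (adjusted p = 5.24e-05). Il34, the second ligand of that receptor, was at 0.24 (adjusted p = 0.627). Csf2 itself had at most 2 UMIs in any library, under the floor of 3 UMIs, so that its level could not be compared at this depth. The kinase gene Jak2 (0.44), the lineage factor gene Spi1 (0.42), Stat5a (0.30), Stat5b (-0.05), Csf3r (-0.23), Il3ra (0.01) and the feedback inhibitor genes Socs2 (-0.93) and Cish (-0.72) did not pass. Without LC replicate 1 the test was passed by Jak2 (0.49), Spi1 (0.78) and Socs2 (-1.31).

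Of 20 tested immediate early and NR4A genes 3 were higher and 4 lower, near the shares over all genes tested (16.8% higher and 19.6% lower). Klf2 (-1.53), a shear-stress factor of endothelium, Btg2 (-1.11), Dusp1 (-1.06) and Egr1 (-0.85, adjusted p = 0.0338) were lower with Nr4a1, whereas Fosl1 (3.34), Myc (2.40) and Fosl2 (0.74) were higher. Fosl1 was at 4.39 without LC replicate 1. Egr1 was called in 12 of 16 fits and Fosl2 in 9, and both lost their calls without LC replicate 2, IP + LC replicate 1 or IP + LC replicate 2, and Fosl2 also without IP + LC replicate 3. Dusp1 lost its call without IP + LC replicate 1 or IP + LC replicate 2. The 2 relatives of Nr4a1 did not pass, Nr4a2 at 0.15 (adjusted p = 0.811) and Nr4a3 at 0.26 (adjusted p = 0.736), nor did Fos at -0.16 (adjusted p = 0.706).

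Of the angiotensin system 5 genes beside Ace were tested, and 3 were lower and none higher. They were Mme, the peptidase neprilysin (-2.30), Enpep, aminopeptidase A (-2.17), and Agtr1a, the angiotensin II receptor (-1.63, adjusted p = 0.0215). Agtr1a lost its call without LC replicate 2 or IP + LC replicate 2. Agt, Ren1, Agtr1b and Agtr2 had at most 2 UMIs in any library, and Mas1 had none in any.

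The relatives of Ly6c2 and Ms4a4c went in both directions, with 4 higher and 3 lower of 12 tested. In the Ly6 family Ly6i, a neighbor of Ly6c2, rose from 7.49 to 28.5 CPM (log2 fold change 1.91, adjusted p = 0.00516), Ly6d, a lymphoid and epithelial gene, fell by 1.16, and Ly6a (0.01) and Ly6e (0.14) did not pass. Among the Ms4a genes Ms4a6d (1.53), Ms4a6c (1.07) and Ms4a6b (0.99) were higher, Ms4a4d (-1.44) and Ms4a8a (-1.18) were lower, and Ms4a7 (0.90, adjusted p = 0.365) and Ms4a4b (-0.09, adjusted p = 0.863) did not pass. Without LC replicate 1 Ms4a7 was at 2.48 (adjusted p = 3.13e-06) and Ms4a6d at 2.54 (adjusted p = 2.48e-07). Ms4a6d was called in 10 of 16 fits and lost its call without any 1 of the other tumors (the highest adjusted p was 0.216). Ms4a6c, Ms4a4d and Ly6d were called in 14, 15 and 12 of 16 fits, each losing its call without IP + LC replicate 2, and Ms4a6c and Ly6d also without LC replicate 2 and Ly6d without IP + LC replicate 1.

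**Figure D5:**
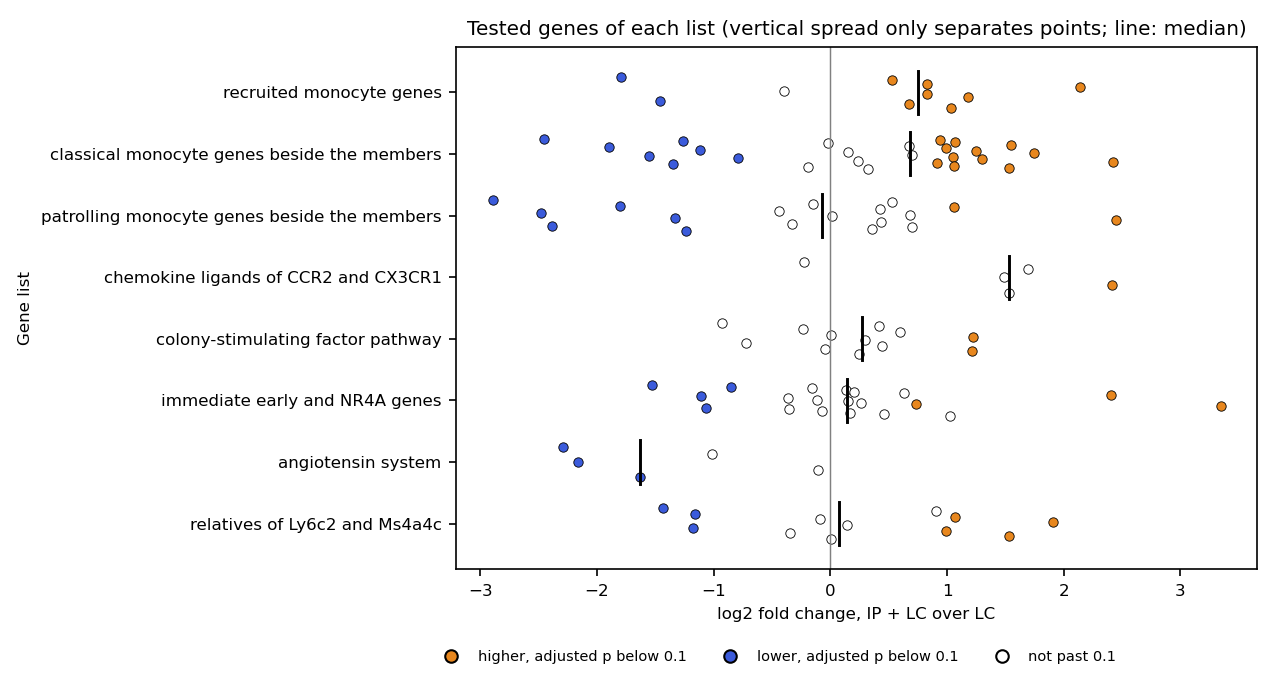
The log2 fold change of IP + LC over LC is plotted for each tested gene of the 10 genes and of the 7 lists around them, orange where higher and blue where lower at an adjusted p below 0.1, with the list median as a line. The classical list holds 12 higher and 7 lower genes, the angiotensin list 3 lower ones, and the CCR2 and CX3CR1 ligands 1 higher one.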

How the data were processed

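The authors made 3′ libraries from 180 ng of total RNA with oligo-dT primers that carry a UMI of 10 nucleotides and read 81 bases of insert. Per the labels and the study's methods, they used UMI-tools 1.1.1, Trim Galore 0.6.7, HISAT2 2.2.1 on GRCm38 and featureCounts 2.0.1, and the deposited values are unnormalized whole-number UMI counts, with 1 table of genes for each tumor. The annotation release and the use of strand are not given in the sources used here, so that reads of overlapping or antisense genes may be mixed. Intervals and floors computed from UMIs cover counting error only.

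Groups were taken from the sample titles. In R 4.3.3, edgeR 4.0.16 kept genes by filterByExpr (minimum count 10, minimum total 15), scaled libraries by TMM (factors 0.905 to 1.07) and compared IP + LC with LC by the quasi-likelihood test, without covariates. Benjamini-Hochberg adjustment ran over 11240 genes, with the limit of 0.1 that the study's methods state. Within both groups, every pair of replicates differed by more than sampling noise. The procedure was tested on simulated data. Positions, transcripts and coding sequences came from GENCODE M21 on GRCm38 and promoters from RefSeq, and all 10 genes were found in both. Alignments used biopython 1.88.

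In place of TMM, the size factors of DESeq2, the upper quartile and library size alone were tried as alternatives. Others were no filter or at least 10 UMIs in every library, DESeq2 1.42.0, voom with quality weights of limma 3.58.1, a replicate block, thinning to 592733 UMIs, a limit of 0.05, and leaving out each tumor. The 10 genes, the lists and the markers were chosen with earlier results of these data known. By rule, the text names the 10 genes, the chemokine ligands, the colony-stimulating factor genes and the relatives with at least 10 UMIs, at most 6 called genes in each direction of the other lists with at least 10 UMIs in every library of the higher group, Agtr1a, Nr4a2, Nr4a3, Fos and Egr1, abundant markers of the cell type lists, and the genes most like each of the 10 over 6 libraries. Apoc2 and Csf3 were not analysed here, and 1 gene that the rule names is not reported here.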

Additional observations from a re-analysis of the deposited data

How the results depend on the processing

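No direction of the 10 genes turned under any of 16 alternatives, and 2 of them were called lower in every one. The number called higher was 7, and it was 3 after thinning to 592733 UMIs, where Ly6c2, Ccr2, Cx3cr1 and Csf2ra lost their calls (adjusted p = 0.131, 0.299, 0.164 and 0.446), 4 at a limit of 0.05, 6 with DESeq2, 5 with the replicate block, and 2 to 7 with 1 tumor left out, lowest without IP + LC replicate 2. Over all genes the 1885 higher calls became 3273 with voom and 623 after thinning, and 897 to 3324 with 1 tumor left out, and the 2203 lower calls became 1030 after thinning and 1368 to 3367. The 21 higher calls of the lists became 36 with voom and 14 (without LC replicate 2) to 39 (without LC replicate 1) with 1 tumor left out. Scaling by library size only made 58.3% of calls higher in place of 46.1% and moved the median of all genes by 0.16 on the log2 scale (no filter, 0.12). Deviations from the group mean correlated at 0.026, -0.12 and 0.112 between samples of the same number. Between samples of different numbers they correlated at -0.142 to 0.126. With 3 samples in each group this check cannot decide whether the numbers pair the tumors. The replicate block gave 3410 calls in place of 4088. Cx3cr1 and Csf2ra lost their calls with the block (adjusted p = 0.132 and 0.165), as did Fosl2 (0.108), while Ccl7, Ccl8 and Ccl12 gained theirs. Thinning also ended the calls of Csf2rb2, Ly6d, Ms4a6d, Ifitm6, Fosl2 and Egr1 (adjusted p = 0.192, 0.228, 0.172, 0.224, 0.351 and 0.214).

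Log2 fold changes near 0 turned their sign, and of these genes only Ly6e was ever called, without LC replicate 1 (0.38). Il3ra was at -0.0107 with DESeq2's size factors, -0.054 with upper quartile scaling, -0.0617 with DESeq2 and -0.00559 with the replicate block. Ly6a was at -0.00274, -0.0599 and -0.00205 under the first 3 of these and at -0.171 after thinning. Stat5b was at 0.109 with library size only, 0.0651 with no filter and 0.16 after thinning, Ms4a4b at 0.0743 and 0.022 and Fos at 0.00309 under the first of these settings, and Stat5a at -0.165 with voom. With 1 tumor left out Cx3cl1 ranged from -0.47 to 0.0386, Csf3r from -0.44 to 0.15, Il3ra from -0.31 to 0.37, Stat5b from -0.21 to 0.12, Ly6a from -0.0945 to 0.11, Ly6e from -0.0491 to 0.38, Ms4a4b from -0.27 to 0.18, Nr4a2 from -0.0513 to 0.47, Nr4a3 from -0.0524 to 0.79, and Fos from -0.31 to 0.0707. The causes were not tested. The 592733 UMIs of LC replicate 1 limit what can be said of genes with few UMIs.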
